A study of Anser anser with 2 samples.

Results

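In goose liver small RNA, 485 reference names carried no miRNA family in the deposited tag tables and came from species other than chicken (prefix gga) and zebra finch (prefix tgu). They were found by the family entry and the species prefix alone, and reads were summed over species for each name. They make up 485 of the 1363 names so formed in the series, with 308 listed for the control and 351 for overfed liver. Here and in later totals, a name listed both with and without a family is counted once in each class. All birds were Landes ganders aged 90 days, 60 in the whole experiment, kept under natural light and temperature. The control library comes from the normal liver of geese fed a basal diet at will, with 2873 kcal and 171 g of protein per kg. The overfed library comes from the fatty liver of geese given a diet rich in carbohydrate for 21 days, with 3353 kcal, 76 g of protein and 15 g of fat per kg. With 1 library for each diet, differences have no replicate check and were not tested. The sources used here do not give the number of birds behind a library. A library of whole liver RNA also cannot separate fewer cells of a type from less RNA per cell.

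A miRNA is cut from a hairpin precursor by Drosha and Dicer, which gives most of its reads the same 5′ end, and the bases next to that end, the seed, select its targets. Small RNA libraries also pick up pieces of longer structural RNAs. Transfer RNA ends in CCA, which an enzyme adds after transcription, and its T loop carries a methylated adenosine at which reverse transcriptase can insert another base. Ribosomal RNA of vertebrates holds stretches very rich in G and C. Database names without a family are often single entries from deep sequencing, and some were later traced to such structural RNAs. No ribosomal or transfer RNA sequence was compared with the tags here, so the origin of the reads was not tested.

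The commonest tags of the names with the most reads are shown first, because their ends and composition carry the results. A tag is a distinct read sequence. Capitals mark bases 2 to 8, where the seed of a miRNA would lie.

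miR-2487: tCTAAGGGctgggccggtc
miR-4206-3p: cGATTGGAtggtttagtgag
miR-4154-3p: tTTGTTGGttttcggaaacg
miR-4634: cCGGCGCGccgggcccggg
miR-3182: gTTTCTGTagtgtagtgg
miR-3966: aGCAGCCGgcttagaactg

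The names miR-4508, miR-4492 and miR-4674 carry different numbers, but their commonest tags overlap. Capitals mark the run of 12 bases that all 3 tags hold.

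miR-4508: agcggggCTGGGCGCGCGC
miR-4492: cggggCTGGGCGCGCGCcgcg
miR-4674: CTGGGCGCGCGCcgcggct

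A second set ends in CCA. The miR-5100 tag is its commonest with that ending, and the others are the commonest of their names apart from the second form. Capitals mark the final CCA and the base just before the last 18 bases, which differed between tags of the same name.

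miR-2779: tcgTttccggctcgaaggaCCA
miR-2779, second form: tcgAttccggctcgaaggaCCA
miR-2478: ttcgTatcccacttctgacaCCA
miR-3968: ttcgAatcccacttctgacaCCA
miR-5100: ttcgTatcccagcggtgcctCCA
miR-4454: gTatccgagtcacggcaCCA
miR-5097: agggttcaGgtccctgttcgggcgCCA

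The 485 names held 24076 of 9178938 listed miRNA reads in the control library, a share of 0.262% (exact Clopper-Pearson 95% interval 0.259% to 0.266%). In the overfed library they held 35868 of 9737540 reads, or 0.368% (0.365% to 0.372%). The log2 ratio of the shares, overfed over control, was 0.49 (exact conditional binomial 95% interval 0.47 to 0.51). Amplified reads carry no molecular identifiers, and all intervals cover counting error only. Levels are reads per 1000000 listed miRNA reads (RPM), and 1 read was worth 0.109 RPM (control) or 0.103 RPM (overfed). With a floor of 3 counts, a name without reads may reach 0.327 or 0.308 RPM.

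A few names carried nearly all of these reads. Of the 485 names, 18 had a mean of at least 10 RPM, 44 lay from 1 to 10 RPM and 423 lay under 1 RPM, and 259 rested on 1 read in all. The 18 names held 94.2% of the group's reads in control and 94.4% in overfed liver. The lowest 2 of the 18 were miR-2371 at a mean of 12.3 RPM and miR-5115 at 11.5 RPM. The next names down were miR-2184 at 8.74 RPM and miR-1335 at 8.31 RPM. Names listed for cattle (prefix bta) gave 35.6% of the group's control reads, those of the silk moth (bmo) 25.3%, human names (hsa) 18.9% and sea squirt names (cin) 13.9%.

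miR-2487, a cattle name, stood highest, with 867 RPM in control and 1235 RPM in overfed liver. miR-2779, a silk moth name, followed with 661 and 790 RPM. miR-4508, a human name, stood at 289 and 558 RPM. miR-4206-3p, a sea squirt name, stood at 321 and 386 RPM, and miR-4492, a human name, at 86.0 and 197 RPM. All 5 were higher in overfed liver. The other 13 names had at most 34.8 RPM as a mean of the libraries.

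**Figure D1:**
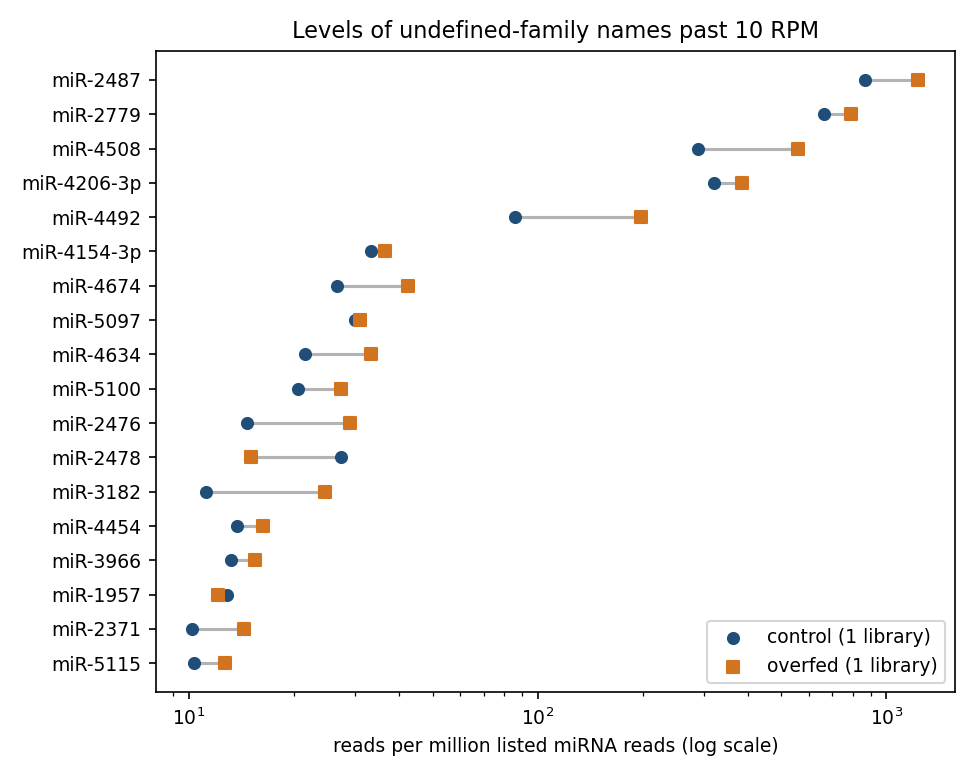
Levels of the 18 undefined-family names with a mean of at least 10 RPM, in RPM on a log axis, with 1 point for the control library and 1 for the overfed library. The 5 names at the top lie above 80 RPM in both libraries, and only miR-2478 and miR-1957 have the overfed point on the left.

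The tags matched their references poorly. Only 48.3% of the group's control reads (47.7% to 49.0%) and 54.9% of its overfed reads (54.4% to 55.4%) had no mismatch to the reference, against 94.8% and 95.7% for names of a defined family. Tags with 2 mismatches, the most listed, held 44.9% and 39.2% of the reads, against 0.342% and 0.359%. Of the 18 names, 9 had no read without a mismatch, and 3 had over 90% of reads without one, namely miR-2487 (96.7%), miR-4508 (98.1%) and miR-4492 (98.3%). The median over the 18 names was 0.212%, against 95.7% over the 165 defined-family names that passed the same minimum. Bases left over at the ends of the alignment were present in 94.4% of the control reads, against 33.8%.

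For miR-2779 and miR-4206-3p the commonest tag covered the whole reference, but mismatches cut the exact match short. Capitals mark the longest run that the reference shares with the commonest tag, 17 bases for miR-2779, 10 for miR-4206-3p and 19 for miR-2487.

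miR-2779 reference: ataTCCGGCTCGAAGGACCA
miR-4206-3p reference: attgaataGTTTAGTGAG
miR-2487 reference: cTCTAAGGGCTGGGCCGGTCgg

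The reads were short and rich in G and C. Tags of 18 to 20 bases held 61.6% of the group's reads in control and 66.2% in overfed liver, against 3.99% and 5.06% for defined families. The group therefore made up 9.87% of all listed control reads of 18 bases but 0.102% of those of 22 bases. It also held 162 of the 696 listed control reads of 27 bases (23.3%, 20.2% to 26.6%), 85 of them the miR-5097 tag printed above. GC content over all bases read was 65.1% and 67.7%, against 42.1% and 42.6%. By name it ran from 27.8% for miR-2371 to 94.8% for miR-4492, and 6 of the 18 names were at 70% or more, against 1 of the 165 defined-family names.

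**Figure D2:**
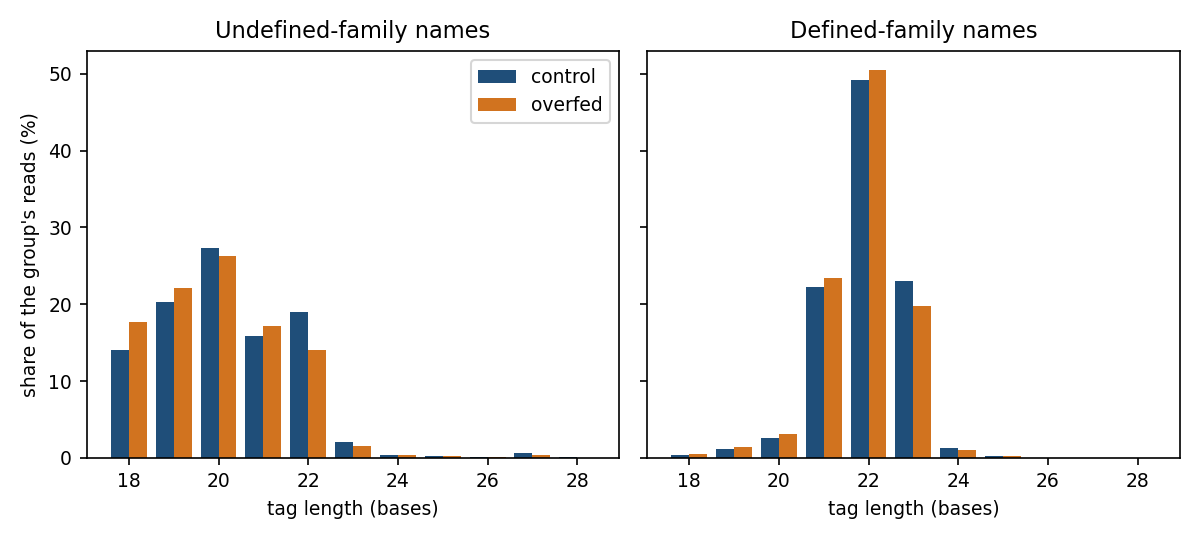
Share of reads by tag length in bases for undefined-family names (left) and defined-family names (right), with bars for the control and the overfed library, lengths of 18 to 28 bases. The undefined-family reads are spread over 18 to 22 bases, while defined-family reads peak at 22 bases.

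The 5′ ends of the tags varied. The share of reads with a name's commonest 5′ end, taken as the first 10 bases, had a median of 43.0% over the 18 names and of 97.9% over the 165 defined-family names. It was under 50% for 10 of the 18 and for 3 of the 165. Tags that start at the same base but differ within the first 10 bases count here as different ends. In miR-5097, 2 such tags held 30.8% and 18.5% of control reads, in miR-2779 59.5% and 6.51%, and in miR-4454 20.6% and 6.35%. For these 3 names part of the spread is therefore base variation and not a different start. The same base varied in miR-5100 and miR-2478, where its leading form held 46.2% and 60.8% of reads over both libraries. The median and the count under 50% thus do not measure the start alone, and the part of base variation was not counted. For miR-2487, control reads that held its core began mainly at 4 neighbouring bases, with 24.6%, 30.1%, 28.4% and 11.3% of them. The 3′ ends showed no such gap, with medians of 66.1% and 59.2%.

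**Figure D3:**
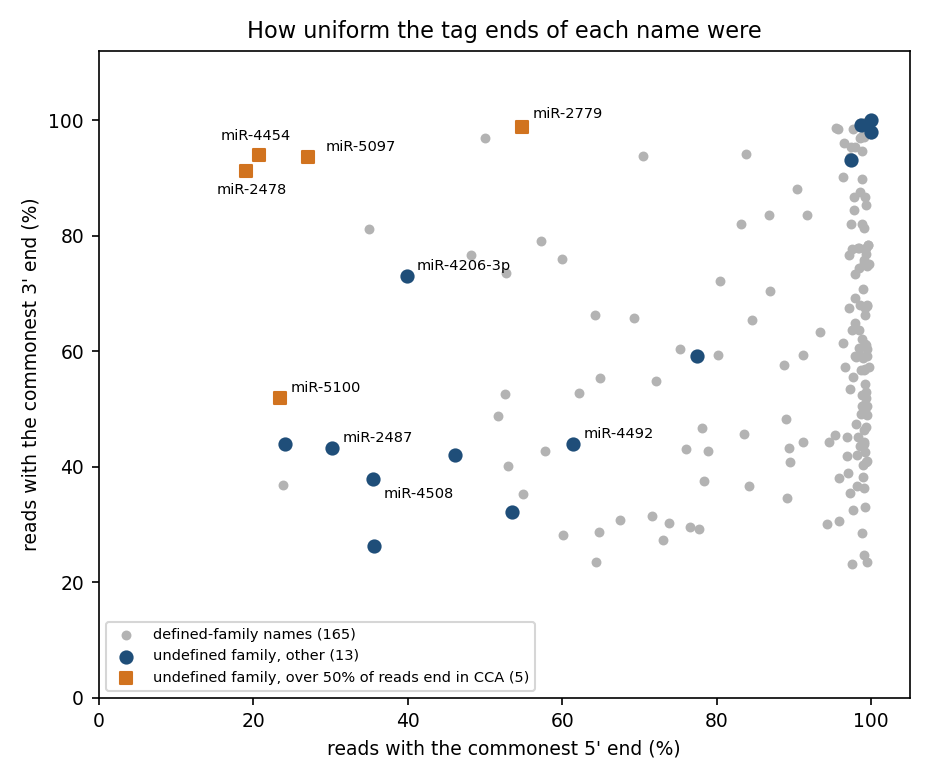
For each name with a mean of at least 10 RPM, the share of reads with the commonest 5′ end (x axis, %) against the share with the commonest 3′ end (y axis, %), both libraries summed. An end is the first or last 10 bases, so tags of the same start that differ within them are counted apart. Defined-family names crowd at the right edge, near the median of 97.9%, while the 5 undefined-family names whose reads mostly end in CCA lie to the left, at 19.1% to 54.8%.

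Most reads ended in CCA for 5 of the 18 names: miR-2779, miR-5097, miR-5100, miR-2478 and miR-4454. Of the 165 defined-family names 2 were alike in this, miR-1260a (97.9%) and miR-193 (84.2%). The share of reads with this ending was 98.9% for miR-2779, 98.5% for miR-2478, 94.7% for miR-4454, 94.6% for miR-5097 and 51.9% for miR-5100. Over all 485 names it was 28.6% in control and 23.6% in overfed liver, against 0.0189% and 0.0190% for defined families. In 4 of these names the 3′ end was nearly fixed, at 91.2% to 98.9% of reads, and the 5′ end varied. The motif TTCGA or TTCAA, the usual start of the T loop's conserved bases, searched on the read strand, was in 1.10% and 0.644% of the group's reads. It was in 0.155% and 0.124% of defined-family reads. The last base of the motif is the one in capitals in the CCA tags above, often T or G. Tags with another base there, or that begin inside the motif as the printed miR-2779 tags do, were not counted. These shares therefore cannot show how many reads hold a changed or cut form of the motif.

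The base in front of the last 18 bases varied, a position picked after the tags had been seen. Among reads of miR-2779 with its commonest last 18 bases, this base was T in 87.7% and A in 11.8% (10.95% to 12.6%) of 5907 control reads. In the overfed library it was T in 90.6% and A in 8.48% (7.86% to 9.13%) of 7467 reads, a smaller A share beyond counting error. The 2 printed forms of miR-2779 differ by A4T alone, counted from the 5′ end of the second form. The T form of 22 bases stood at 394 and 403 RPM (log2 ratio 0.03; -0.03 to 0.10). The A form of 22 bases stood at 43.0 and 33.3 RPM (log2 ratio -0.37; -0.59 to -0.16). The T form without its first base stood at 93.0 and 192 RPM (log2 ratio 1.04; 0.92 to 1.16), so the rise of miR-2779 lay largely in that shorter tag.

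The other names of the set also varied at this base. For miR-5097 it was G in 48.4%, T in 36.3% and A in 13.7% of 256 control reads. For miR-4454 it was T in 61.3% and A in 24.3% of 111 control reads, and for miR-5100 A in 32.4% of 108. Over the tags with the commonest last 18 bases of the set, miR-3968 included and miR-2779 left out, the leading base held 53.5% of reads at this position, 97.1% at the next position towards the 5′ end and 98.5% at the one after. For miR-2779 these were 89.3%, 98.7% and 98.7%. Since the deposited rows allow at most 2 mismatches to a reference, forms with more differences are not listed, and the shares depend on each reference.

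The listed name followed this base for miR-2478 and for part of the miR-3968 reads. The commonest tags of these 2 names differ by A5T alone, counted from the 5′ end of the miR-3968 tag. Among reads with the last 18 bases of miR-2478, those with T (146 control, 77 overfed), G (45 and 17) or C (9 and 7) in front were all listed as miR-2478. Those with A were listed as miR-3968 (41 and 13) more often than as miR-2478 (7 and 5). However, 53.0% of the miR-3968 reads ending in CCA had another sequence as their last 18 bases. In front of that sequence the base was T in 48.8% of 43 control reads and 52.6% of 19 overfed reads. miR-2478 stood at 27.3 RPM in control and 15.1 RPM in overfed liver, a log2 ratio of -0.86 (-1.16 to -0.56). miR-3968 had 9.59 and 3.29 RPM (log2 ratio -1.54; -2.18 to -0.95). Summed over all their reads, the 2 names went from 36.9 to 18.4 RPM (log2 ratio -1.01; -1.28 to -0.74). The A share in the reads with the last 18 bases of miR-2478 was 19.4% (14.6% to 24.8%) and 15.1% (9.22% to 22.8%), which overlap.

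The names of the set ending in CCA did not move alike. Against the falls of miR-2478 and miR-3968, miR-2779 had a log2 ratio of 0.26 (0.21 to 0.30) and miR-5100 of 0.41 (0.13 to 0.68). The values for miR-4454 (13.7 and 16.3 RPM) and miR-5097 (30.1 and 31.0 RPM) differed by less than counting error. All of the group's reads ending in CCA together went from 751 to 870 RPM (log2 ratio 0.21, 0.17 to 0.26), and its other reads from 1872 to 2814 RPM (log2 ratio 0.59, 0.56 to 0.62). miR-2779 gave most of the reads ending in CCA, with 661 and 790 RPM over all its reads. The sum without miR-2779 was not counted, so the rise cannot be taken as general to reads with this ending.

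The overlapping names of high GC content were higher in overfed liver. miR-4508 had a log2 ratio of 0.95 (0.88 to 1.02) and miR-4492 of 1.20 (1.08 to 1.32). miR-4674 stood at 26.7 and 42.4 RPM (log2 ratio 0.67; 0.44 to 0.90). Joined, they went from 402 to 797 RPM (log2 ratio 0.99; 0.93 to 1.05). GC content was 87.1% for miR-4508, 94.8% for miR-4492 and 89.4% for miR-4674.

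The 3 names divided 1 stretch of sequence by where a tag began and ended. Counted from the first base of the shared run, control reads of miR-4508 began mainly 8 bases (35.5%) or 7 bases (33.5%) before it. Those of miR-4492 began 5 bases (60.2%) or 4 bases (34.7%) before it, and all 241 miR-4674 control reads that held the start of the run began on it. In overfed liver 36.3% of miR-4508 reads began 7 bases before it and 35.9% began 8 bases before it, and 62.6% of miR-4492 reads began 5 bases before it. Within miR-4492 the tag printed above stood at 17.4 and 50.5 RPM (log2 ratio 1.54; 1.28 to 1.80). The names are thus not separate evidence of a difference.

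miR-2487, the largest name, had 391 distinct tags, no read ending in CCA, a GC content of 70.3% and a log2 ratio of 0.51 (0.47 to 0.55). Among its tags with the 3′ end of the printed one, the tag of 20 bases had a log2 ratio of 0.64 (0.52 to 0.76) and the tag of 21 bases one of 0.20 (0.07 to 0.32). miR-4634, with a GC content of 94.8%, stood at 21.6 and 33.3 RPM (0.63, 0.37 to 0.89), and miR-5115, at 81.8%, stood at 10.3 and 12.7 RPM (0.30, -0.10 to 0.70). Their commonest tags share a run of 13 bases with each other.

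Other names had a GC content below the group's 65.1% in control liver, and near or under the defined-family median of 43.2%. miR-4206-3p, at 42.4%, had 33 tags, all of 18 to 20 bases, and a log2 ratio of 0.27 (0.20 to 0.34). Its printed tag stood at 118 and 129 RPM, and its tag of 18 bases, which lacks the first 2 bases, at 51.9 and 72.2 RPM, with log2 ratios of 0.14 (0.02 to 0.26) and 0.48 (0.31 to 0.65). miR-4154-3p stood at 33.2 and 36.5 RPM (0.13, -0.09 to 0.36) and miR-2371 at 10.2 and 14.4 RPM (0.49, 0.10 to 0.88). Their commonest tags overlap by 13 bases, in capitals here.

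miR-2371: tctatTTTGTTGGTTTTC
miR-4154-3p: TTTGTTGGTTTTCggaaacg

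Some names rested on nearly a single tag. miR-3182 had 6 tags, of which the one printed above held 98.1% of its control and 97.9% of its overfed reads. Its level was 11.2 RPM and 24.5 RPM, a difference of 1.13 (0.79 to 1.48) on the log2 scale. None of its reads matched the reference without a mismatch. miR-3966 had 1 tag, with 121 control and 151 overfed reads, and a log2 ratio of 0.23 (-0.12 to 0.59). miR-1957 had 51 tags and 118 reads in each library (-0.09, -0.47 to 0.30). Its commonest tag shares 16 bases with that of miR-5112, which had 7 and 13 reads (0.81, -0.62 to 2.37).

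Among the 62 names with at least 1 RPM, 11 fell into 5 groups whose commonest tags share at least 15 bases in a row. Besides the sets above, these were miR-4466 with miR-5126, which share 19 bases, and miR-4507 with miR-4651. miR-4466 and miR-5126 together went from 7.19 to 13.1 RPM (0.87, 0.43 to 1.32). The 18 names past 10 RPM had 17 different seeds in their commonest tags. Of the group's reads, 6.18% in control and 6.96% in overfed liver had their last 12 bases in common with a tag of another name of the group, and 3.56% and 4.03% their first 12. With tags of a defined family, 1.24% and 1.32% had their last 12 bases in common, and 8.26% and 11.4% their first 12.

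Some names shared sequence with names of a defined family. The commonest tag shared at least 15 bases with a defined-family reference for 1 of the 18 names past 10 RPM, for 6 of the 44 from 1 to 10 RPM and for 12 of the 423 below. The 1 name was miR-2476, whose match was its own name, listed with a family for another species. Without a family it stood at 14.7 and 29.1 RPM (0.98, 0.68 to 1.29), and with one at 3352 and 3971 RPM (0.24, 0.22 to 0.27). The 6 included miR-720, again through its own name and also in the transfer RNA list given later. They included miR-101c, whose tag holds 18 bases of miR-101a-3p and which had 65 and 44 reads (-0.65, -1.23 to -0.07). They also included a name miR-92a of another species (prefix odi), with 22 and 23 reads. The name miR-1352 had 22 and 18 reads. Its commonest tag, of 6 reads, holds the first 18 bases of the commonest tag of miR-122, the main liver miRNA, behind 2 other bases. Capitals mark the shared 18 bases.

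miR-1352: tcTGGAGTGTGACAATGGTG
miR-122: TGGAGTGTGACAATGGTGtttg

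miR-2184, a zebrafish name just under 10 RPM, had 97.6% of reads on the commonest 5′ end. Of the names past 10 RPM, miR-3182 and miR-3966 (100% each), miR-4674 (98.6%) and miR-2371 (97.4%) had similar shares. No read of miR-2184 matched its reference without a mismatch. It stood at 7.63 and 9.86 RPM (log2 ratio 0.37; -0.09 to 0.84). Its commonest tag follows with the seed in capitals.

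miR-2184: aACAGTAAgagttgatgtgcg

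Lists of names reported in other species as lying in structural RNAs were read by their counts. Of 15 ribosomal names, 7 were found and 4 passed 10 RPM, 3 of them higher beyond counting error and none lower. These 3 are the overlapping miR-4508, miR-4492 and miR-4674. Of all 185 names past 10 RPM, 39.5% were higher and 36.8% lower beyond counting error. The ribosomal list summed to 413 and 812 RPM (0.98, 0.92 to 1.03), of which the 3 overlapping names gave 402 and 797 RPM. The lists were chosen with earlier results of these data known, so this sum adds no separate support. Of 15 transfer RNA names, 4 were found (miR-2478, miR-4454, miR-720 and miR-1260b) and 2 passed, 1 of them lower beyond counting error. The listed name miR-1260a has a defined family, at 7.95 and 12.2 RPM, and was not counted. The 4 names found summed to 44.2 and 35.5 RPM (-0.32, -0.53 to -0.11). The list leaves out other names whose reads mostly end in CCA, among them miR-2779, miR-5097, miR-5100, miR-3968 and miR-1386. All reads of miR-1386, a name under 10 RPM, end in CCA, with 45 in control and 59 in overfed liver (0.31, -0.28 to 0.90). Unlike the sum of the list, the sum of the group's reads with that ending rose, from 751 to 870 RPM (0.21, 0.17 to 0.26). Most of that sum was miR-2779, at 661 and 790 RPM over all its reads. Of 7 mitochondrial names only miR-4485 was found, with 5 and 24 reads. None of the 3 Y RNA or vault RNA names and none of the 8 small nuclear or nucleolar names was found.

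Between the libraries, 11 of the 18 names (61.1%) were higher in overfed liver beyond counting error and 1 (5.56%) was lower. The 11 include the overlapping miR-4508, miR-4492 and miR-4674. With overlapping names joined, 10 of 17 were higher and 1 was lower. Of all 185 names past 10 RPM 39.5% were higher and 36.8% lower, and of the 165 with a defined family 36.4% and 40.6%. At least 2 times higher were miR-4492 and miR-3182, 2 of 18, against 7.57% of the 185 names and 7.27% of the 165, so this count is near the background. None of the 18 was at least 2 times lower, against 1.08% and 1.21%. The median log2 ratio was 0.35 over the 18 names, 0.05 over all 185 and 0.02 over the 165 of a defined family. By sign 16 of the 18 were above 0, and 15 of 17 with overlapping names joined. With edgeR's TMM factors, which lower all log2 ratios by 0.16, 14 of the 18 were above 0, with miR-4154-3p and miR-5097 turned below it. With these factors 9 were higher beyond counting error, miR-3182 was no longer 2 times higher and miR-2478 became 2 times lower. Below that level, 14 of the 44 names from 1 to 10 RPM were higher beyond counting error (31.8%) and 2 were lower (4.55%), against 22.2% and 9.36% of all 171 names of that level.

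**Figure D4:**
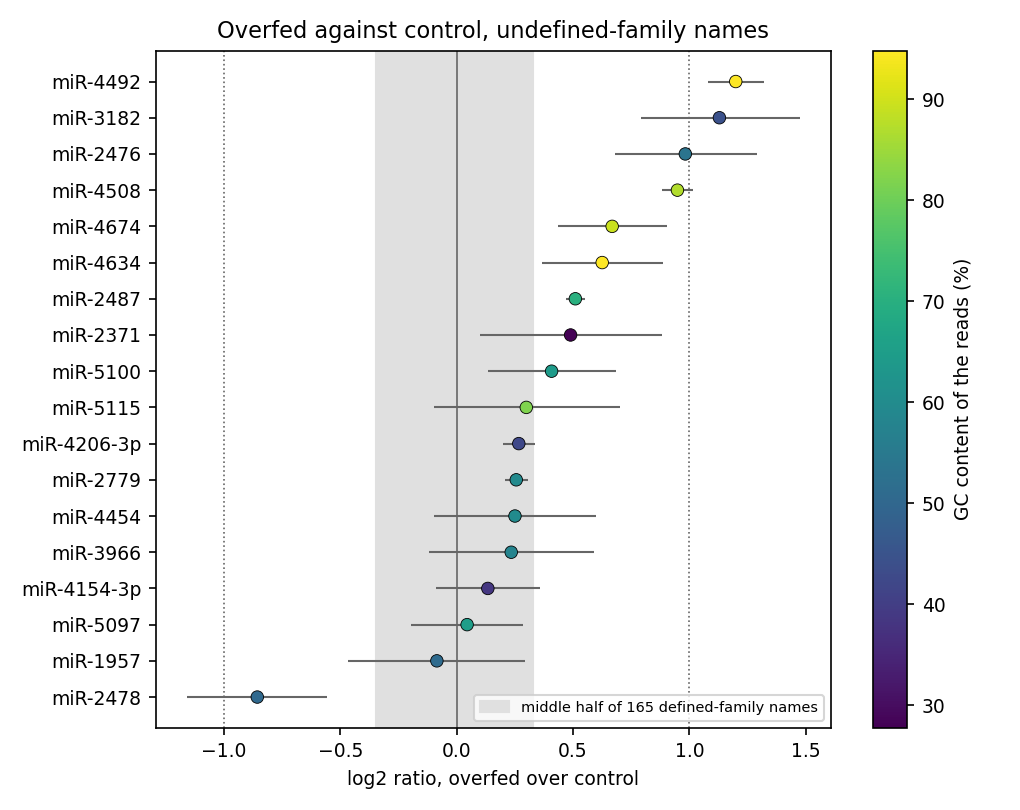
Log2 ratio of overfed over control for the 18 names past 10 RPM, with exact 95% counting intervals as bars and colour for the GC content of the reads; the grey band is the interquartile range of the 165 defined-family names and the dotted lines mark 2 times. The 2 names of highest ratio are miR-4492 and miR-3182, and miR-2478 alone lies wholly below 0.

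The ratio differed with tag length and composition, but single names filled some of these classes. Among the group's tags the log2 ratio was 0.83 (0.77 to 0.89) at 18 bases, 0.62 at 19 bases and 0.44 at 20 bases. It was 0.60 (0.54 to 0.66) at 21 bases and 0.05 (-0.01 to 0.11) at 22 bases, so it did not fall steadily. miR-2779 held 88.6% of the group's control reads of 22 bases, and without it the value there was 0.37 (0.20 to 0.53). Without miR-2779, miR-4508, miR-4492 and miR-4674 the values were 0.69 at 18 bases, 0.48 at 19 bases and 0.37 at 20 bases. Without these 4 names they were 0.23 (0.15 to 0.31) at 21 bases and 0.37 (0.20 to 0.53) at 22 bases. Short tags of defined families were also higher in overfed liver, with 0.40 (0.38 to 0.42) at 18 bases and 0.04 at 22 bases.

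By GC content, the group's log2 ratio was 0.33 under 40%, 0.24 from 40% to 50%, 0.06 from 50% to 60%, 0.56 from 60% to 70%, 0.53 from 70% to 80% and 0.95 at 80% or more, so it did not rise steadily. miR-2779 held 82.3% of the control reads from 50% to 60%, and without it the value there was 0.17 (0.05 to 0.30). miR-4508, miR-4492 and miR-4674 held 87.9% of those at 80% or more, and without them it was 0.62 (0.46 to 0.78). Over the same classes in the same order, defined-family tags had -0.22, 0.04, 0.37, 0.31, -0.01 and 0.76, the last from 72 and 129 reads.

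Among the group's tags of 18 to 20 bases the log2 ratio was 0.78 (0.74 to 0.83) for a GC content of at least 70% and 0.40 (0.36 to 0.44) below it. Without miR-4508, miR-4492, miR-4674 and miR-2779 these were 0.60 (0.55 to 0.66) and 0.41 (0.36 to 0.45). Defined-family tags of that length had 0.13 (-0.08 to 0.35), from 334 and 388 reads, and 0.34 (0.33 to 0.35). These 2 values did not differ beyond counting error. Among the group's tags of 21 bases or more the values were 0.56 (0.49 to 0.63) and 0.18 (0.13 to 0.23). Without the 4 names they were 0.39 (0.31 to 0.48) and -0.08 (-0.19 to 0.03). Defined-family tags of 21 bases or more had 0.30 (-0.16 to 0.77), from 71 and 93 reads, and -0.02. The part of RNA quality or library preparation in these values was not tested.

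**Figure D5:**
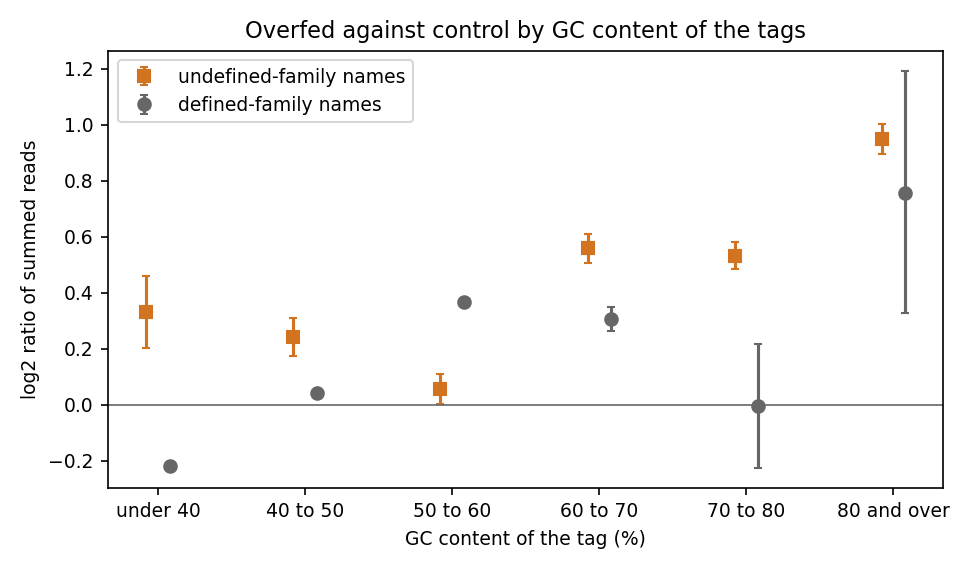
Log2 ratio of summed reads, overfed over control, by GC content of the tag in percent, for undefined-family names (squares) and defined-family names (circles), with exact 95% counting intervals. The undefined-family value is 0.95 at 80% and over and 0.06 from 50% to 60%.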

How the data were processed

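In the tables the authors deposited, 1 per library, each row gives a tag's read count, the reference miRNA of any species it matched, the family, mismatches and left-over bases. Per the labels' protocols, RNA of 20 to 30 nt was taken by gel from 10 μg of total RNA for Illumina libraries. These raw counts carry no normalization. The sources used here name no aligner, database or release.

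Rows with family "undef" and a prefix other than gga or tgu were summed by name without the prefix. Ratios and shares used all listed reads as the base, 9178938 (control) and 9737540 (overfed), with exact binomial intervals for counting error. Alternatives changed the scaling, minimum level, ratio, tag length, mismatches and joining of names. The size rule asked for a mean of 10 RPM, 2 times and an interval excluding 1, and was checked on simulated counts. Names past 10 RPM, and lower ones that share 15 bases with them or differ 4 times with an interval beyond 2 times, are named; miR-2184, miR-1335, miR-101c, miR-92a, miR-1352, miR-720, miR-1260b, miR-4485, miR-4466, miR-5126, miR-4507, miR-4651, miR-193, miR-1260a and let-7c were chosen after their values were seen, or belong to a list. miR-1386 was also chosen after its values were seen. Members and lists were chosen with earlier results of these data known. Python 3.11.15 (numpy 2.4.6, pandas 2.3.3, scipy 1.17.1, matplotlib 3.10.9) and R 4.3.3 (edgeR 4.0.16, DESeq2 1.42.0, for scaling factors only) were used.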

Additional observations from a re-analysis of the deposited data

How the results depend on the processing

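No paired analysis was possible because there is 1 library for each diet, and none could be left out. Against 2 names past the size rule, scaling without miR-122 gave 9 (8 higher, 1 lower) of 31 compared, no minimum level 18 of 485, a minimum of 5 RPM 4, a minimum of 100 RPM 1, a ratio of 1.5 times 7 and of 4 times 0; the numbers compared or the rule itself differ there. Tags without a mismatch, an alternative chosen after seeing the data, gave 1. Against 11 names higher beyond counting error, which was itself counted after seeing the data, scaling without miR-122 gave 20, no minimum 30, a minimum of 100 RPM 5, tags of at least 21 bases 4, tags with at most 1 mismatch 5 and tags without a mismatch 4, of 31, 485, 5, 7, 9 and 5 compared. Elsewhere 9 to 15 were higher. With TMM factors, with tags of at least 21 bases and with overlapping names joined there were again 2 past the rule, but 1 was lower, miR-2478.

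The log2 ratio of the group's share was 0.58 without miR-122 in the base and 0.32 with tags of at least 21 bases. Reads without a mismatch were 24.4% (control) and 23.7% (overfed) with distinct tags weighted equally, 30.0% and 34.4% with tags of at least 21 bases, and 24.9% and 33.6% without miR-2487. GC content was 63.1% and 64.0%, 64.2% and 66.3%, and 62.6% and 66.4% in the same order. Tags of 18 to 20 bases were 59.9% and 63.0% with distinct tags weighted equally and 54.6% and 60.3% without miR-2487. With a run of at least 18 bases 4 names shared one. Of 144 log2 ratios of single names, over the 9 settings that can change them, 117 stayed within their counting interval. Keeping the species prefix or joining overlapping names left most ratios exactly as they were, so part of the 117 was fixed beforehand. Of the names higher or lower beyond counting error 1 changed sign, miR-2371, at -0.76 (-2.72 to 1.03) from 8 and 5 reads with at most 1 mismatch. The values by tag length and GC content without single names were also added after seeing the data. The cause of the changes was not tested. Depth limits names under 10 RPM.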

Other observations

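Of the 44 names from 1 to 10 RPM, 3 differed by at least 4 times with an interval beyond 2 times. miR-709, whose commonest tag is a GGA repeat, had 1 control and 36 overfed reads, a log2 ratio of 5.08 (2.51 to 10.4). miR-4175-3p had 6 and 39 reads (2.62, 1.36 to 4.15), and miR-3141 had 3 and 22 reads (2.79, 1.05 to 5.17). All 3 are higher in the overfed library and rest on few reads. This rule was not counted over all 171 names of that level, so 3 of 44 has no background here. Beyond counting error 22.2% of the 171 were higher and 9.36% lower.

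Of the 485 names, 134 were listed in the control library alone, with at most 3 reads each, and 177 in the overfed library alone, with at most 8 reads each. A name with 1 read in all, as 259 of the 485 had, can be listed in 1 library only. The whole series also had more names in the overfed library, 1080 of 1363 against 975 in the control. For the group these were 351 and 308 of 485. Of all 485, 373 had no read without a mismatch. Neither this count nor that of names in 1 library alone was made over the whole series, so both lack a background here. There were 17 names that also occur with a defined family, such as let-7c, with 9 and 4 reads without a family and 19819 and 19763 reads with one.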
